A study of Mus musculus with 29 samples.

Results

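The libraries described here are the 10 with the highest and the 10 with the lowest share of 7S RNA among 29 whole-blood RNA sequencing libraries of mice. The share is the summed normalised count of Rn7s1 and Rn7s2 as a percentage of the sum over all gene symbols in the same library. The 20 libraries were chosen by this share, so all differences between the high and the low class are descriptions without a test. The other 9 libraries belong to neither class.

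Each library came from 1 male mouse whose genotype the labels give as LJ. Blood was taken at day 120 after 11.35 Gy to the upper body or after sham irradiation, in a study of radiation response and of survival markers for delayed lung injury. There were 10 sham animals, 10 irradiated animals with Live as outcome label and 9 irradiated animals with Die. All sham animals also carry the outcome label Live, and below "Live" and "Die" mean the irradiated groups. In all 3 groups blood from the cheek or tail vein went into PAX solution, globin and ribosomal RNA were removed, and libraries of total RNA were prepared with strand kept. Age, batch and the RNA integrity of single animals are not in the labels.

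7S RNA, also called 7SL, is the RNA scaffold of the signal recognition particle, which docks ribosomes that make secreted and membrane proteins at the endoplasmic reticulum. It is made by RNA polymerase III, like Rmrp, the RNA of the ribosomal RNA processing enzyme RNase MRP, Rpph1, the RNA of the transfer RNA processing enzyme RNase P, and Rn7sk, an RNA that holds the elongation factor P-TEFb inactive. These RNAs are short and strongly folded, and they lack a poly(A) tail.

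The sequences of Rmrp, Rpph1 and Rn7sk are shown because the largest shared differences below rest on such RNAs. They are the GENCODE M21 transcripts on GRCm38, written 5′ to 3′ in the transcribed direction, whole for Rmrp and as the first 300 bases for Rpph1 and Rn7sk. Rn7s1 and its copy Rn7s2 have 0 differing bases over 300, and the normalised counts of the copies were equal in 29 of 29 libraries. The copies were therefore used as a sum.
Rmrp lies on chromosome 4 from 43492788 to 43493058, Rpph1 on chromosome 14 from 50807449 to 50807767 and Rn7sk on chromosome 9 from 78175303 to 78175633, all on the minus strand. GENCODE M21 holds a second Rmrp entry of 281 bases from 43492783 to 43493063 around the shown one, and which entry the deposited values follow is not given in the sources used here.
Rmrp: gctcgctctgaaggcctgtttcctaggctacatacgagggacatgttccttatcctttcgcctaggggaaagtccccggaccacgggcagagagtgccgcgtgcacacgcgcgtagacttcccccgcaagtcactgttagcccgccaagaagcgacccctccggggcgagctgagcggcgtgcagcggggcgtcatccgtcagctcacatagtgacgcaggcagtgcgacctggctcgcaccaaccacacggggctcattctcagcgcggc
Rpph1: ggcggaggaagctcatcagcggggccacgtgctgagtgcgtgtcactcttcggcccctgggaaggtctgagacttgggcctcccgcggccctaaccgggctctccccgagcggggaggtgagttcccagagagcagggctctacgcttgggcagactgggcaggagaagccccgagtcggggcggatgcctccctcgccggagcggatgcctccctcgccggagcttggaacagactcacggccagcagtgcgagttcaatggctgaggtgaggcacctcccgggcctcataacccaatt
Rn7sk: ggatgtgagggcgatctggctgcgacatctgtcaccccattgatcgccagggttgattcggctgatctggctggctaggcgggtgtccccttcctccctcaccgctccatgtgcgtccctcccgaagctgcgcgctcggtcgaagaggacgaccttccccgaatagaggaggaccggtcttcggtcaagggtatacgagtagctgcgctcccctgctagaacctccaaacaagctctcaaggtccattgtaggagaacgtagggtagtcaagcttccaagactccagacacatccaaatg
All 4 RNAs are GC-rich, with 62.3% G and C in Rn7s1, 64.2% in Rmrp, 67.1% in Rpph1 and 58.0% in Rn7sk, beside a median of 48.8% over the 10421 protein-coding genes measured.

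The 7S share ran from 2.73% to 40.1% over the 29 libraries. In the high class, the 7 Live libraries had shares of 40.1%, 39.9%, 33.6%, 31.4%, 29.5%, 25.6% and 24.6%, the 2 Die libraries 32.1% and 27.9%, and the 1 sham library 26.3%. In the low class, the 6 Die libraries had shares of 3.02%, 4.97%, 5.78%, 7.64%, 8.72% and 15.2%, the 3 sham libraries 2.73%, 14.7% and 15.2%, and the 1 Live library 11.6%. High libraries were thus mostly Live and low libraries mostly Die. At the edges of the classes, the high class ended at 24.6% with the next library at 23.1%, and the low class ended at 15.2% with the next library at 16.5%. The 9 libraries between, 6 sham, 2 Live and 1 Die, had shares of 16.5% to 23.1%.

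**Figure D1:**
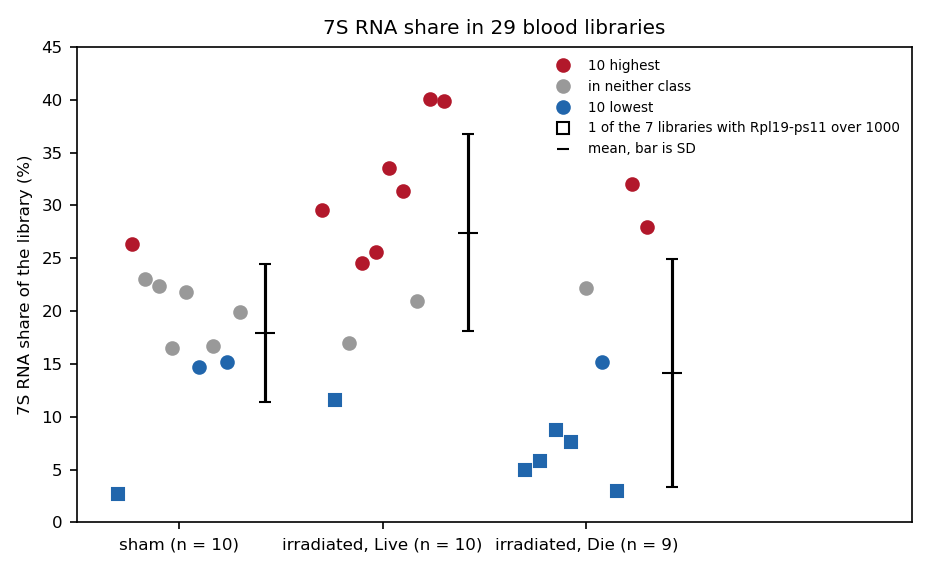
Share of 7S RNA (Rn7s1 plus Rn7s2, percent of the library's summed normalised counts) in each of 29 libraries, by study group, with red for the 10 highest, blue for the 10 lowest and grey for the others. Squares mark the 7 libraries with Rpl19-ps11 above 1000, black bars give the mean and SD of each group. Of the 10 lowest libraries 6 are Die, and of the 10 highest 7 are Live.

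The summed normalised counts per library were 19.6 M to 55.7 M, with 14975 to 24275 gene symbols above 0. Without 7S RNA the sum was 15.7 M to 33.4 M in high libraries (median 20.5 M) and 17.2 M to 30.3 M in low libraries (median 21.6 M), so the classes overlap in the rest of the library. Hemoglobin genes took 1.90% to 7.44%, and marker genes of red cells (Hba-a1), neutrophils (S100a8), B cells (Cd79a), T cells (Cd3e) and platelets (Pf4) were above 0 in all libraries, as the label whole blood implies.

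The 7 libraries of lowest share, sham replicate 1, Live replicate 5 and Die replicates 2, 3, 4, 10 and 14, stood apart from the other 22 in more than 7S RNA. The 7 were defined by a value above 1000 of Rpl19-ps11, a processed pseudogene of a ribosomal protein gene on chromosome 8 from 19492936 to 19493526. It lay at 1479 to 6615 normalised counts in these 7 and at 0 to 117 in the others, a separation that follows from the rule. Of 11517 genes with a mean of at least 50, 88 were lower in all 7 than in any of the 22 (0.764%) and 17 were higher (0.148%). The 17 include Rpl19-ps11 itself. The 7 include 3 libraries in which many of these genes were listed at 0, namely 828 genes in sham replicate 1, 754 in Die replicate 2 and 506 in Die replicate 14, against at most 220 in any other library. They were singled out after the data were seen, and the labels name no batch that separates them. Differences below are therefore also given from the 22 other libraries, with classes formed again. In that version the same 10 libraries form the high class, and the low class is 6 sham, 2 Live and 2 Die libraries with shares of 14.7% to 22.2%.

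Between the classes, 1636 genes were at least 1 higher on the log2 scale in high libraries (14.2% of 11517) and 241 at least 1 lower (2.09%), with the study group as a covariate. The median difference over all genes was 0.12. The values of the classes did not overlap for 20 genes that were higher (0.174%) and 1 that was lower (0.00868%). Without the 7 libraries 124 genes were at least 1 higher (1.08%) and 117 at least 1 lower (1.02%). Both counts were thus lower in the 22 libraries, whose low class also has higher shares.

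Other short structured RNAs were mostly higher in the high class in both versions. Rmrp, Rpph1 and Rn7sk differed by less in the 22 libraries, and Rny1 and the U3 genes described below by more. In the 22 libraries 72 of the 124 genes at least 1 higher were protein-coding, a smaller share than among all genes measured (10421 of 11517). Rmrp had 6870 normalised counts in the lowest, 13350 in the median and 22322 in the highest of the high libraries, against 1345, 2079 and 6072.5 in the low libraries. The classes did not overlap, and the log2 difference was 2.33 (SE 0.35), or 0.89 (SE 0.25) without the 7 libraries. Rpph1 had 40016, 81685 and 152790 in high libraries against 2700, 8705 and 34848 in low libraries. It too did not overlap, with a log2 difference of 2.85 (SE 0.53), or 0.90 (SE 0.33) without the 7. Within each study group the high minus low difference of Rmrp was 1.24 in sham, 1.97 in Live and 3.07 in Die, and that of Rpph1 was 2.06, 2.28 and 3.58, so both were higher in high libraries of every group. These within-group values compare 1 with 3 sham, 7 with 1 Live and 2 with 6 Die libraries.

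Rn7sk, the most abundant of the other RNA polymerase III transcripts, had 408300, 559600 and 813070 in high libraries and 178480, 284030 and 436450 in low libraries. The classes overlapped at their edges, and the log2 difference was 0.81 (SE 0.44), or 0.42 (SE 0.40) without the 7. Y RNA 1 (Rny1), a small RNA bound by the Ro autoantigen, was low throughout, with 31.8, 98.3 and 211 in high and 0, 50.8 and 497 in low libraries and a log2 difference of 0.35 (SE 1.05), or 1.07 without the 7. The classes overlapped widely for it. The other 4 of the 8 RNAs on the fixed list had a mean under 50 and are given as values. Terc, the RNA template of telomerase, was listed at 0 in 9 of 10 low libraries and in 1 of 10 high libraries, with a highest value of 171 in the high and 48.8 in the low class. Rny3 reached 78.9 in high and 176 in low libraries, Vaultrc5, a vault RNA, 31.2 and 36.4, and Bc1, a neuronal small RNA, 34.3 and 42.2, so these 3 overlapped.

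**Figure D2:**
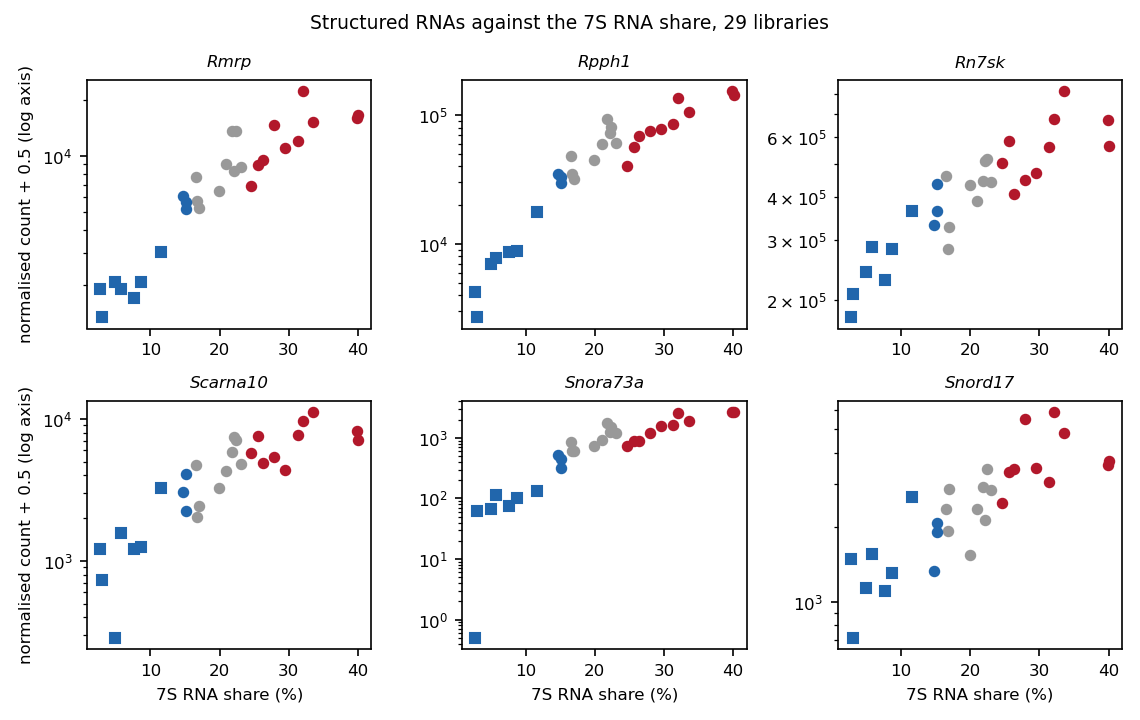
Normalised count plus 0.5 (log axis) of 6 structured RNAs against the 7S share (percent) in 29 libraries. Red points are the 10 high, blue the 10 low and grey the other libraries, and squares mark the 7 libraries with Rpl19-ps11 above 1000. Rmrp, Rpph1, Scarna10 and Snora73a show no overlap of red with blue, and Snora73a is listed at 0 in sham replicate 1.

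Small nuclear and nucleolar RNAs were mostly higher in the high class as well. These are the spliceosomal snRNAs that build the splicing machinery, the snoRNAs that guide chemical modification of ribosomal RNA, and the scaRNAs that do the same for snRNAs in Cajal bodies. Because identical copies receive identical values, genes with the same values in all libraries were counted once, which left 36 distinct profiles of 49 genes with a mean of at least 50. Of the 36, 27 were at least 1 higher in the high class, beside 14.1% of all distinct profiles. Above 0 were 58.25% of all distinct profiles and 32 of the 36. Their median log2 difference was 1.62 against 0.12 over all profiles. Without the 7 libraries the median was 0.95 against -0.00094, and 35 of 36 were above 0, beside 49.9% of all distinct profiles. The mean filter can admit a low RNA through the libraries in which it is high, so these counts do not extend to the RNAs below it.

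Among the box H/ACA snoRNAs, which guide pseudouridylation, 4 of 40 passed the mean filter and 3 of them were at least 1 higher, beside 14.2% of all genes. Snora73a, which in other work takes part in ribosomal RNA cleavage, had 747, 1598 and 2687 in high libraries against 0, 107 and 520 in low libraries, with no overlap. Its log2 difference of 3.97 (SE 1.06) depends on the pseudocount because sham replicate 1 is at 0, and it was 0.93 without the 7. Snora74a did not overlap either (lowest high library 485, highest low library 298) and differed by 0.97 without the 7, and Snora73b and Snora23 overlapped. Scarna10, a guide RNA of Cajal bodies on chromosome 6 from 125186359 to 125186683, had a median of 7366 in high and 1412 in low libraries, with no overlap between 4375 and 4075. Its log2 difference was 1.91 (SE 0.44), or 0.78 without the 7. Scarna6 (2.62), Scarna13 (1.14) and Scarna2 (1.02) were higher in the high class with overlap, and their differences without the 7 were 0.97, 0.43 and 0.79.

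Box C/D snoRNAs mostly guide 2′-O-methylation, and 2 of 98 with symbols beginning Snord passed the mean filter. Snord17 had 2504, 3543 and 5888 in high and 712, 1414 and 2656 in low libraries, with a log2 difference of 1.43 (SE 0.26). Snord15b differed by 1.21 (SE 0.39). Without the 7 they differed by 0.81 and 0.77. Among the snRNAs, U1 (Rnu1a1 and identical copies) had medians of 1112 and 79.0 and U2 (Rnu2-10 and identical copies) 1064 and 290, with log2 differences of 4.47 (SE 1.15) and 1.81 (SE 0.51). Leaving out the 7 libraries, the difference of U1 was 1.03, and that of U2 stayed above 0. U3 is a nucleolar RNA that takes part in ribosomal RNA cleavage and is not spliceosomal. Its genes Rnu3a and Rnu3b1 differed by 0.71 (SE 0.41) and 0.57 (SE 0.43), and by 1.05 and 1.23 without the 7. Within study groups, the 7 measured genes with symbols beginning Rnu had medians of 0.10 in sham, -0.43 in Live and 1.38 in Die. Identical copies were not counted once in this list, and its median over all groups equals its lowest value, the 0.57 of Rnu3b1. These medians thus follow 1 U3 profile, which was not higher in high libraries of every group, and do not describe U1 or U2.

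The 9 libraries that the ranking left out gave a view of the same RNAs in other animals. A limma fit of log2(value + 0.5) on the share, per 10 percentage points and with study group as covariate, called 0 of 11517 genes in either direction (0.0%), with 295 at an unadjusted p under 0.05. The shares of these libraries span 16.5% to 23.1%. The fitted slope was above 0 for 34 of the 36 distinct snRNA, snoRNA and scaRNA profiles, with a median of 1.31, beside 51.1% of all distinct profiles with a median of 0.014. For Rmrp it was 1.42 (SE 0.52) and for Rpph1 1.57 (SE 0.74), both with an adjusted p of 1.

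The messenger RNAs of the proteins that bind 7S RNA were mostly below 0. All 8 SRP protein genes were measured, and 2 were above 0, beside 6715 of all 11517 genes. The median difference of the 8 was -0.37 (-0.05 without the 7), against 0.12 over all genes. Srp54a, whose protein recognises signal sequences, had a median of 1033 in high and 1499 in low libraries (log2 difference -0.79, SE 0.34), and Srp19, which helps assemble the particle, 241 and 350 (-0.94, SE 0.33). Srp54c differed by -0.54, and Srp54b by 2.33 with an SE of 1.61. In the 22 libraries Srp54a and Srp19 each differed by 0.03, Srp54c by -0.14 and Srp54b by -0.78. The SRP receptor and the translocon, the membrane channel for the nascent protein, gave a median of -0.07 over 18 genes, and of 0.09 in the 22 libraries. Of the 18, 1 was at least 1 higher (Sec61b, 1.14, SE 0.73) and 0 at least 1 lower, beside 14.2% and 2.09% of all genes. Sec62 differed by -0.75 and the receptor gene Srpr by -0.76. In the 22 libraries Sec61b differed by 0.21, Sec62 by -0.03 and Srpr by -0.51.

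The RNA polymerase III machinery gave a median of 0.20 over 26 genes, 0.01 without the 7. Gtf3a, which encodes transcription factor IIIA of the 5S RNA genes, differed by 1.43 (SE 1.03) and Maf1, a repressor of the polymerase, by 0.89 (SE 0.29). Ssb, the La protein that binds new polymerase III transcripts, differed by -0.76 (SE 0.22), and Larp7, a protein of the 7SK particle, by -0.71 (SE 0.26). Without the 7 these 4 differed by 0.05, 0.19, -0.01 and -0.11. Of 17 measured genes of the RNA exosome and 3′ end processing, 2 were at least 1 higher, Exosc5 (2.06, SE 1.09) and Exosc4 (1.63, SE 0.93), and 1 at least 1 lower, Zcchc8 (-1.21, SE 0.35), a subunit of the nuclear exosome targeting complex. The count of 2 is a share of members no larger than the 14.2% of all genes at least 1 higher. The median was -0.14, and 0.24 without the 7, where Exosc5 differed by 0.41, Exosc4 by 0.13 and Zcchc8 by 0.32.

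Replication-dependent histone genes, whose messages end in a stem-loop in place of a poly(A) tail, were higher in the high class. Of 22 genes 17 passed the mean filter. Of these, 10 were at least 1 higher and 0 at least 1 lower, beside 14.2% and 2.09% of all genes. The median was 1.17. Without the 7 it was 0.23, and 0 were at least 1 higher, beside 1.08% of all genes. H4c3 had 580, 970 and 1373 in high and 74.0, 225 and 617 in low libraries (log2 difference 2.02, SE 0.42). H4c8 had 335, 641 and 901 against 66.6, 187 and 338 (1.92, SE 0.39). Both overlapped slightly, whereas H3c6 did not (lowest high library 311, highest low library 256). In the 22 libraries H4c3 differed by 0.56, H4c8 by 0.62 and H3c6 by 0.45. Of 24 cell cycle genes 2 were at least 1 higher, a smaller share than the 14.2% of all genes. The 2 at least 1 lower, beside 2.09% of all genes, were Nusap1 (-1.04) and Ccna2 (-1.01). The median was -0.44, with 9 above 0, beside 6715 of all 11517 genes. In the 22 libraries 19 of the 24 were above 0, beside 5752 of all 11517 genes. The median of the 24 was then 0.14, and Nusap1 and Ccna2 differed by 0.11 and -0.29.

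**Figure D3:**
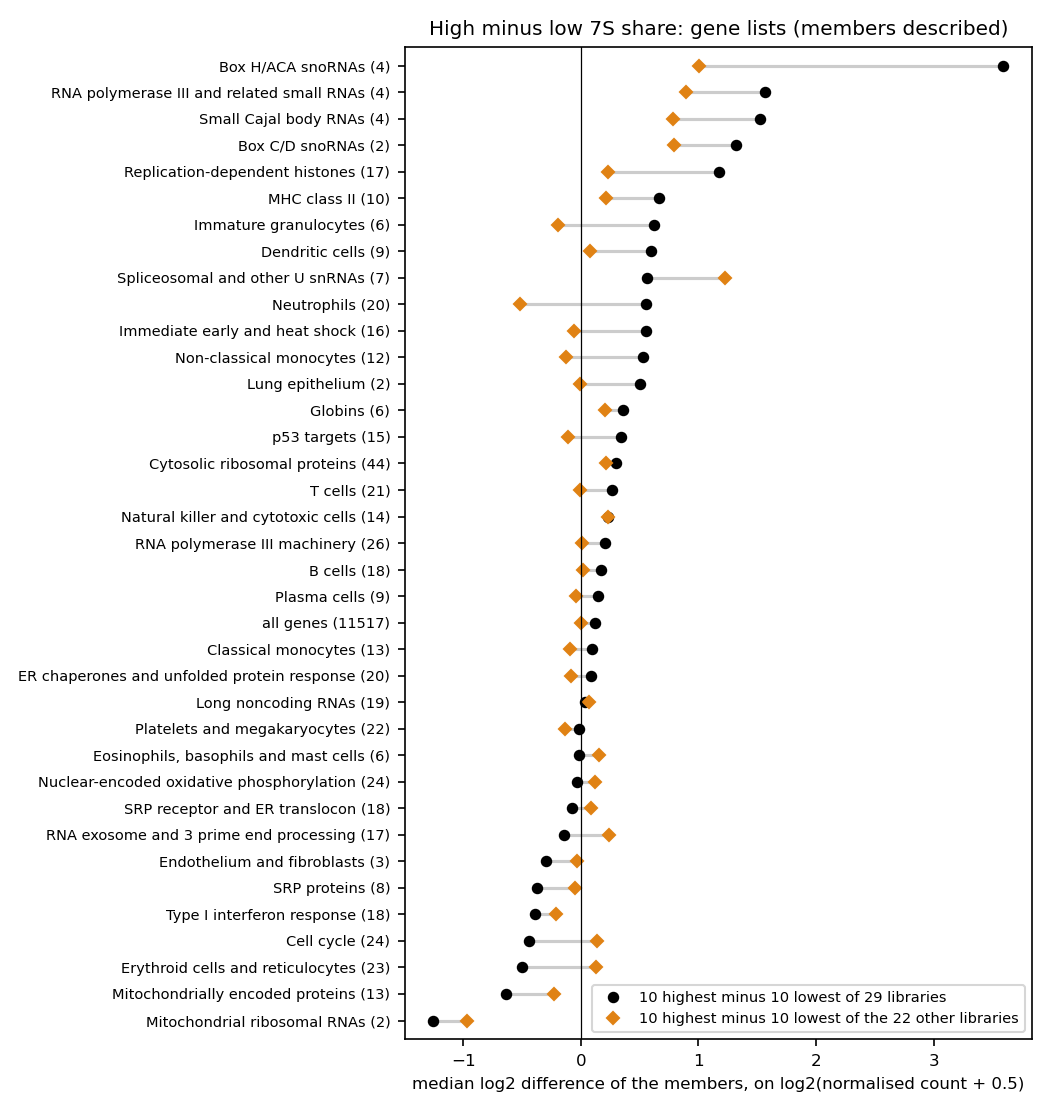
Median log2 difference, high minus low 7S share, of the measured members of each gene list (number in brackets), from 29 libraries (black circles) and from the 22 libraries left without the 7 that stand apart (orange diamonds), on log2(normalised count + 0.5). The H/ACA snoRNA list lies furthest right from 29 libraries (3.59), the 5 small RNA lists lie between 0.78 and 1.23 without the 7, and mitochondrial ribosomal RNAs lie furthest left in both.

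The named genes with the largest difference relative to its standard error were, besides Rmrp, Rpph1, Snord17, H4c3 and H4c8, mainly protein-coding. Limd2, a LIM domain gene of lymphocytes on chromosome 11 from 106156256 to 106160860, had 2331, 2893 and 3520 in high and 927, 1356 and 2077 in low libraries, with no overlap. Its log2 difference was 1.07 (SE 0.20), or 0.23 without the 7. Tbc1d10c, an inhibitor of Ras and calcineurin signalling on chromosome 19 from 4183411 to 4191284, had 786, 1278 and 1535 against 113, 516 and 775, again without overlap, with a difference of 1.83 (SE 0.36), or 0.33 without the 7. Sirt7, a nucleolar deacetylase that promotes ribosomal RNA transcription, had 658, 881 and 1174 against 248, 500 and 850 (1.19, SE 0.20), with overlap and 0.10 without the 7. Brk1, a subunit of the WAVE actin complex (1.39), the ion channel gene Hvcn1 (0.94), Cmtm7 (1.02) and Khnyn, a cofactor of an antiviral protein (0.74), fell to 0.30, 0.15, 0.19 and -0.13 without the 7. From the 22 libraries all 7 of these protein-coding genes lay between -0.13 and 0.33, beside a median of 0 over all genes to 2 decimals.

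In the other direction Rab8b, a small GTPase of vesicle traffic on chromosome 9 from 66843664 to 66919687, was the 1 gene lower without overlap. It had 2580, 3218 and 3567 in high and 3643, 4528 and 6562 in low libraries, a log2 difference of -0.70 (SE 0.15), or -0.19 without the 7. Atf7ip, a chromatin regulator, had 2358, 3628 and 5736 against 4262, 7462 and 9154 (-1.08, SE 0.22), and 0.06 without the 7. Wtap, a subunit of the RNA adenosine methylase complex (-0.93), Marchf6, an endoplasmic reticulum ubiquitin ligase (-1.80), Zfp609 (-1.41), Ogfrl1 (-1.06) and the transcription factor gene Bhlhe41 (-2.13) all overlapped. Without the 7 libraries their differences were -0.16, -0.30, -0.57, -0.04 and -0.60. Mpp5, a cell polarity protein, also overlapped and differed by -0.33 without the 7. The remaining 4 are processed pseudogenes or retrocopies. Rpl19-ps11 and H3f3c had a median of 0 in high libraries and of 4131 and 802 in low libraries, Rpl14-ps1 had 297 and 2240, and Rps12l1 7180 and 23538. No fold is given for the first 2, since the median of 1 class is listed at 0.

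The differences of protein-coding genes were graded by base composition in the 29 libraries. The 10421 protein-coding genes were split into 5 equal groups (quintiles) by the GC content of their transcript. From the GC-poorest to the GC-richest quintile, the median log2 differences were -0.24, -0.10, 0.09, 0.34 and 0.71, and 2.59%, 4.27%, 8.59%, 15.4% and 34.2% of the genes were at least 1 higher. Within every quintile by length the order from poorest to richest was kept, for example from -0.30 to 0.81 in the shortest quintile and from -0.24 to 0.62 in the longest. Over genes, which are not independent replicates, Spearman's rho of GC content with the difference was 0.52, and it was -0.08 without the 7 libraries. In that version the 5 medians by GC content lay between -0.03 and 0.04.

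This difference could be read in single libraries as the median centred log2 value of the GC-richest quintile minus that of the GC-poorest. It was -1.51 in sham replicate 1, -1.32 in Die replicate 14, -0.82 in Die replicate 2, -0.59 in Die replicate 3, -0.57 in Die replicate 4, -0.44 in Live replicate 5 and -0.11 in Die replicate 10. In the other 22 libraries it ran from -0.24 to 0.62 with a median of 0.37. Of the 7, 6 were below all of the 22, and Die replicate 10 was not. Within the 22 the 10 high libraries (-0.24 to 0.54, median 0.36) and the 10 low libraries (-0.10 to 0.62, median 0.38) covered nearly the same range.

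Transcript length gave a smaller gradient. From the shortest to the longest quintile the medians were 0.28, 0.20, 0.09, 0.04 and -0.02, and without the 7 libraries they were 0.07, 0.02, -0.02, -0.03 and -0.05. Within quintiles of GC content the 29-library gradient was not uniform, with -0.30 in the shortest and -0.24 in the longest genes of the GC-poorest quintile, 0.12 and 0.08 in the middle one, and 0.81 and 0.62 in the GC-richest. Spearman's rho over genes was -0.17 and -0.15, and length and GC content were themselves related at -0.24. In the 9 libraries outside the classes, the median slope per 10 percentage points went from 0.27 in the shortest to -0.15 in the longest quintile, with a rho of -0.25. How RNA integrity or fragment selection moved with these gradients was not tested, since no value for single libraries is used here.

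**Figure D4:**
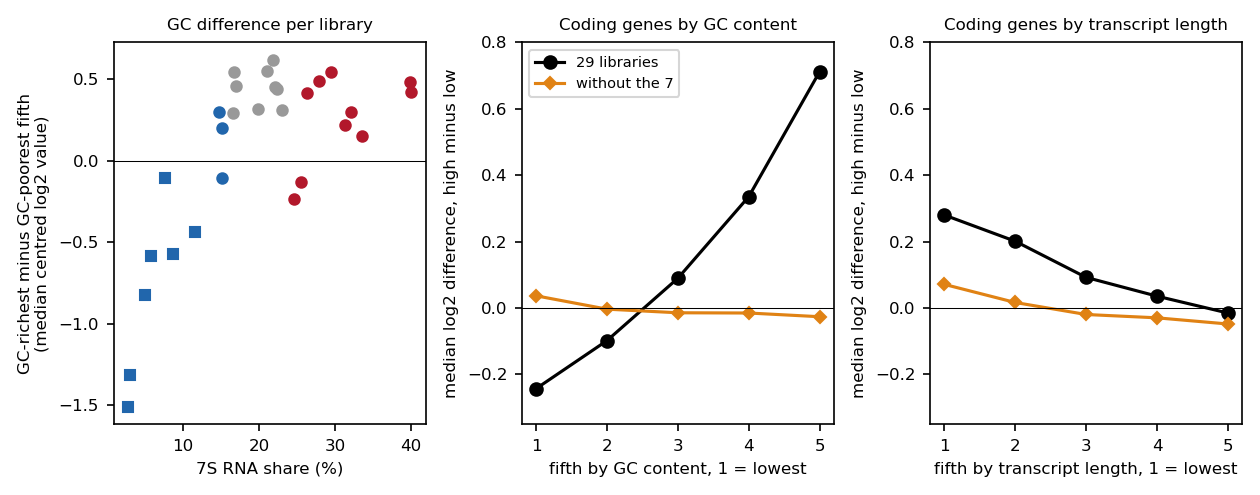
Left, median centred log2 value of the GC-richest minus the GC-poorest quintile of protein-coding genes against the 7S share (percent) in each library, with colours by class (red high, blue low, grey neither) and squares for the 7 libraries that stand apart. Middle and right, median log2 difference, high minus low, by quintile of GC content and of transcript length, from 29 libraries (black) and without the 7 (orange). The GC gradient of -0.24 to 0.71 is nearly flat without the 7.

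Most mitochondrial RNAs had fitted differences below 0. The ribosomal RNAs mt-Rnr1 and mt-Rnr2 differed by -1.24 (SE 0.70) and -1.26 (SE 0.93), and by -1.21 and -0.72 in the 22 libraries, with values from 8740 to 253260 in high and 10644 to 352930 in low libraries for mt-Rnr1. The classes overlapped nearly completely, and the median of mt-Rnr1 was higher in high libraries (151270) than in low libraries (99153). The direction depended on the covariate, since mt-Rnr1 differed by 0.13 without it. Mitochondrially encoded messenger RNAs had a median of -0.64 over 13 genes (-0.23 without the 7), with the complex I genes mt-Nd4 at -0.92 (SE 0.32), mt-Nd2 at -0.89 (SE 0.34) and mt-Nd1 at -0.88 (SE 0.30). Without the 7 these 3 differed by -0.49, -0.60 and -0.23. Of the 13, 3 were above 0, beside 6715 of all 11517 genes. Past 1 was 1 of the 13, mt-Nd3 at 3.46 (SE 2.87), beside 14.2% of all genes. That fitted value depends on the pseudocount, since the median of mt-Nd3 is listed at 0 in both classes. Nuclear oxidative phosphorylation genes had a median of -0.03 over 24 genes, and of 0.12 in the 22 libraries. Cytosolic ribosomal protein genes were slightly higher, with a median of 0.30 over 44 genes and 0.22 without the 7. Of these, 9 were at least 1 higher in the 29 libraries, beside 14.2% of all genes, and 0 in the 22, beside 1.08%. Rps14 differed by 1.79 (SE 0.45), and by 0.47 in the 22.

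The medians of several blood cell marker lists lay off 0 in the 29 libraries, and most were nearer to 0 in the 22. In bulk blood, fewer cells of a type and less of its RNA per cell cannot be told apart. Beside the counts above 0 given here, 6715 of all 11517 genes were above 0, and 5752 without the 7. Erythroid genes had a median of -0.50 over 23 genes, with 5 at least 1 lower, beside 2.09% of all genes. Among the 5 were the membrane protein genes Slc4a1 (-1.48) and Epb42 (-1.27). Without the 7 the median was 0.13, with 16 above 0 and 0 at least 1 lower, and Slc4a1 and Epb42 were at -0.23 and -0.08. Neutrophil genes had a median of 0.55 over 20 genes with 16 above 0, but -0.52 without the 7 with 1 above 0, so this list turned direction. S100a8, a calcium-binding protein of neutrophils, had a median of 15424 in high and 12980 in low libraries, with overlap and a log2 difference of 0.12 (SE 0.34), or -0.37 without the 7. MHC class II genes had a median of 0.67 over 10 genes, all 10 above 0, and 0.21 without the 7, with 9 above 0.

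The lymphocyte lists showed the same pattern. B cell genes had a median of 0.18 over 18 genes (0.02 without the 7), with the antigen receptor subunit Cd79a at 1330, 1896 and 2488 in high and 434, 800 and 1987 in low libraries (0.96, SE 0.31, and -0.01 without the 7). T cell genes had a median of 0.27 over 21 genes (-0.01 without the 7), with Cd3e at 0.82 (SE 0.50), or 0.11 without the 7. For platelets the median was -0.01 over 22 genes, although Gp9, a subunit of the von Willebrand factor receptor with a GC content of 58.3%, differed by 1.26 (SE 0.37), and Pf4 by 0.44 (SE 0.22). The platelet median without the 7 was -0.14, Gp9 differed by 0.27 and Pf4 by 0.25. Classical monocyte genes had a median of 0.10 over 13 genes and non-classical ones 0.52 over 12, and both turned direction in the 22 libraries, to -0.09 and -0.13. Type I interferon genes had a median of -0.39 over 18 genes, with Rsad2 and Ifit1, both induced by interferon, at -0.91 (SE 0.50) and -1.09 (SE 0.45). The median without the 7 was -0.21 and both genes were at -0.11.

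The lists left were immature granulocytes (median 0.62 over 6), dendritic cells (0.59 over 9), immediate early and heat shock genes (0.55 over 16), lung epithelium (0.50 over 2), globins (0.36 over 6), p53 targets (0.34 over 15), natural killer and cytotoxic cells (0.23 over 14) and plasma cells (0.14 over 9). Others were endoplasmic reticulum chaperones (0.08 over 20), long noncoding RNAs (0.03 over 19), eosinophils with basophils and mast cells (-0.02 over 6) and endothelium with fibroblasts (-0.29 over 3). From the 22 libraries all 12 medians lay between -0.19 and 0.23. Junb and Ier2, early response transcription regulators with 62.6% and 60.9% GC, differed by 1.39 each (SE 0.36), and by 0.16 and 0.33 without the 7. Malat1, a long nuclear RNA with 42.5% GC, had 32230, 81131 and 97514 in high and 37465, 101690 and 239360 in low libraries, a difference of -0.04 (SE 0.35), or -0.05 without the 7. Of 22 mitochondrial transfer RNAs, 0 reached a mean of 50.

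The share was also compared between the study groups, over all 29 libraries and by the labels, which the ranking did not use. It is the value that chose the classes, and these tests say nothing about the difference between the classes. The 10 sham libraries averaged 17.9% ± 6.57 (SD). Means were higher in the 10 Live libraries, 27.4% ± 9.34 (SD), and lower in the 9 Die libraries, 14.2% ± 10.8 (SD). Live exceeded sham by 9.48 percentage points (two-sided permutation test, Benjamini-Hochberg adjusted p = 0.0341 over 4 contrasts) and Die minus Live was -13.3 points (exact permutation test, adjusted p = 0.0341). Die against sham (-3.78 points, exact permutation test) and both irradiated groups against sham (3.20 points, permutation test) had an adjusted p of 0.435 each. Of the 7 libraries that stand apart 5 are Die, and they hold the 7 lowest shares. Leaving them out removes libraries by the value compared, so the differences without them are given with no test. Live then exceeded sham by 9.55 points (29.2% ± 7.97 with n = 9 against 19.6% ± 4.05 with n = 9). Die minus Live was -4.85 points (24.3% ± 7.35, n = 4). In that version Die exceeded sham by 4.70 points, the opposite direction, and irradiated animals exceeded sham by 8.06 points. Whether the lower share in Die than in Live holds apart from the 7 libraries cannot be told from these values. The 3 libraries with many genes at 0 have the lowest shares of all. Without them Live minus sham was 7.79 and Die minus Live -10.35 points, also given with no test.

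The calls over all 29 libraries for Live minus sham and for Die minus Live rested on single libraries. Live minus sham passed 0.05 no longer when sham replicate 1, 5, 7, 8 or 9 or Live replicate 1, 9, 13, 18 or 19 was left out (7.79 to 9.34 points). Die minus Live did so without Live replicate 1, 9, 13, 18 or 19 or Die replicate 14 (-13.02 to -11.9 points). Over all single omissions the adjusted p of these contrasts lay between 0.0112 and 0.0696 (permutation tests).

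With the 7S share as a covariate, the study's contrasts called other numbers of genes. All 4 contrasts share animals, so their counts are set side by side. For irradiated minus sham, limma called 12 genes higher (0.104%) and 64 lower (0.556%) with the share and 1 higher (0.00868%) and 9 lower (0.0781%) without it, and all 10 of the latter were among the former. For Live minus sham it called 2 higher (0.0174%) and 11 lower (0.0955%) with the share and 3 (0.026%) and 37 (0.321%) without, with 7 genes in both. For Die minus sham 1 gene was lower with the share (0.00868%), Cln8, a lysosomal enzyme trafficking gene, and 0 without. For Die minus Live 0 genes passed in limma with or without the share (0.0%), with 344 and 1579 at an unadjusted p under 0.05.

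Those counts changed again with the 7 libraries. Without the 7 and with no covariate, 8 genes were higher (0.0695%) and 72 lower (0.625%) for irradiated minus sham, of which 34 were among the 76 called with the share in 29 libraries. For Live minus sham there were 111 higher (0.964%) and 295 lower (2.56%), which hold 12 of the 13 genes called with the share. Without the 7 and with the share, 1 gene was higher and 1 lower for irradiated minus sham (0.00868% each) and 0 passed in limma for Live minus sham (0.0%, 1229 at an unadjusted p under 0.05). Membership of the 7 as covariate in place of the share gave 2 higher (0.0174%) and 22 lower (0.191%) for irradiated minus sham, and 24 higher (0.208%) and 118 lower (1.02%) for Live minus sham.

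**Figure D5:**
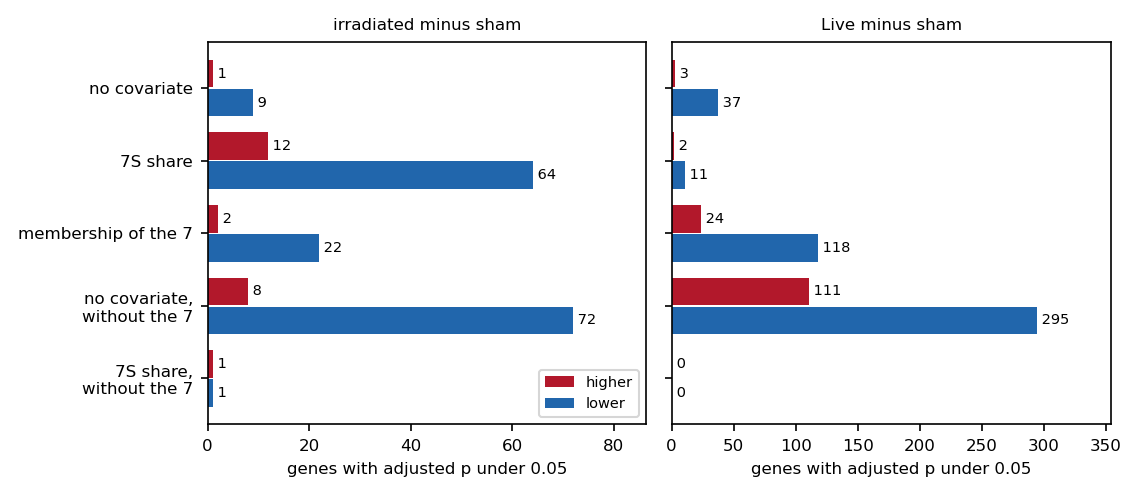
Number of genes with a Benjamini-Hochberg adjusted p under 0.05 in limma (higher in red, lower in blue) for irradiated minus sham and Live minus sham, under 5 ways of treating the 7S share and the 7 libraries that stand apart. The counts run from 2 genes to 80 in the first contrast and from 0 to 406 in the second.

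The named genes called lower with the share as covariate include several of phagocytes. Cx3cr1, the fractalkine receptor of patrolling monocytes, had 442, 1088 and 1810 in sham, 193, 377 and 643 in Live and 306, 417 and 728 in Die. For irradiated minus sham it changed by -1.39 (SE 0.20, limma adjusted p = 0.00108) with the share and by -1.36 (adjusted p = 0.00154) without, so the share moved it little. Cd177 (-1.37), Mpeg1 (-1.08) and Cybb (-0.79), genes of neutrophils and macrophages, were called with an adjusted p of 0.0080 with the share and of 0.0105 without. Without the 7 libraries and with the share, Cx3cr1 changed by -1.24 (adjusted p = 0.0557), Cd177 by -1.13 (0.197), Mpeg1 by -0.92 (0.0874) and Cybb by -0.84 (0.0874), none past the threshold. With membership of the 7 as covariate all 4 passed, with an adjusted p of 0.00420 for Cx3cr1, 0.00811 for Cybb and 0.0308 for Cd177 and Mpeg1. All 10 genes called without a covariate in 29 libraries were also called without a covariate in the 22.

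For other genes the call changed with the share. Cln8 had 691, 1056 and 1541 in sham, 271, 776 and 1044 in Live and 172, 387 and 759 in Die, and changed by -1.12 (SE 0.19, adjusted p = 0.0080) with the share and by -1.01 (adjusted p = 0.0630) without. Lrrc25, a myeloid membrane protein gene, changed by -1.39 (adjusted p = 0.00914) against -1.23 (0.0796), and Adap1, an adaptor of small GTPase signalling, by -1.49 (0.0111) against -1.33 (0.0796). Adap1 was itself 1.63 higher in high than in low libraries. In the upward direction Carmil1, a regulator of actin capping, changed by 1.58 (SE 0.31, adjusted p = 0.0140) with the share and by 1.52 (0.0375) without. Lactb2, Nsd1, Usf3, Rnf19a and Wasl, with changes of 0.45 to 1.16, also passed with the share alone. Without the 7 libraries and with the share, none of the genes named in this paragraph so far passed (limma adjusted p of 0.104 to 0.470). Adap1 then changed by -0.62, Cln8 by -0.89, Lrrc25 by -1.08, Carmil1 by 1.47 and Wasl by 0.84. With membership of the 7 as covariate, Carmil1 passed (limma adjusted p = 0.0431) and the others did not. Rpl19-ps11, the pseudogene that marks the 7 libraries, was called higher with the share (adjusted p = 0.0410) and not without it (0.425), with a median of 0 in sham and Live and of 1479 in Die.

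Rmrp and Rpph1 were not called between Die and Live. For Die minus Live, Rmrp changed by -1.21 (SE 0.45, adjusted p = 0.272) and Rpph1 by -1.78 (SE 0.61, adjusted p = 0.253) without a covariate. With the share as covariate the values were 0.26 (SE 0.20) and 0.19 (SE 0.28), both with an adjusted p of 0.994. Medians of Rmrp were 7064 in sham, 10070 in Live and 2086 in Die, and the ranges overlapped.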

How the data were processed

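The authors deposited normalised counts per gene symbol (a signal, with decimals) for day 120. Per the submitters' processing notes, bcl2fastq 2.19, kallisto 0.44.0, sleuth, DESeq2 and GRCm38 were used. What each did is not given in the sources used here, nor is the annotation. Whole reads could not be recovered (1.89% to 15.8% of values were whole multiples within 0.01), so the depth in reads is unknown and no count test was run. Each of the 29 columns is 1 library of 1 labelled animal, and p-values measure the spread between these libraries.

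Values were analysed as log2(value + 0.5) for 11517 of 50384 symbols with a mean of at least 50, leaving out Rn7s1 and Rn7s2. High minus low differences come from linear models with study group as covariate. Study contrasts and slopes used limma 3.58.1 in R 4.3.3 (two-sided, Benjamini-Hochberg adjusted over all genes, threshold 0.05), and its self-test ran on simulated data. Shares were compared by two-sided permutation tests, exact or with 100000 draws. Other steps used Python 3.11.15, numpy 2.4.6, pandas 2.3.3, scipy 1.17.1 and matplotlib 3.10.9. Length, GC content and sequences come from GENCODE M21, which held 11370 of the 11517 genes.

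Named genes were the 12 with the highest and the 12 with the lowest ratio of difference to standard error, fixed genes, members of 37 gene lists, and the leading genes of each study contrast. The libraries, lists and rules were chosen with earlier results of these data known. Alternatives on the 7 libraries were added after seeing the data. Other pseudocounts, filters, class sizes, scalings, covariates and omissions were also tried. The sequence of 7S RNA and a few genes are not reported here.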

Additional observations from a re-analysis of the deposited data

Results flagged for a closer look

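Within the study groups, 23 of 126 groups of values held a sample whose gap to its nearest neighbour was large against the range of its group. Of these, 14 come from sham replicate 1 and 6 from Live replicate 5, both among the 7 libraries that stand apart. Both are low libraries, and many of the genes looked at were named for their high minus low difference in these data. The flags are therefore not independent, and their number cannot be set against a chance rate.

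Sham replicate 1 was lowest among sham libraries for the 7S share (2.731%, others 14.71% to 26.32%), Rmrp (1921), Sirt7 (404.0), Limd2 (940.6), Rpph1 (4219), Tbc1d10c (112.8), H4c8 (66.63), H4c3 (73.99), Cd79a (433.8) and Cd3e (46.46), in normalised counts. It was highest for Atf7ip (9152), Rpl19-ps11 (6574), Ogfrl1 (4928) and Malat1 (170500). Live replicate 5 was lowest among Live libraries for Sirt7 (248.0), Limd2 (1427), Tbc1d10c (313.8), Brk1 (230.0) and Khnyn (542.4), and highest for Rab8b (4856). The others were Live replicate 8, lowest for Rpl14-ps1 (3.049, others 230.2 to 3193), Die replicate 2 with Rny1 listed at 0 (others 30.44 to 112.8), and Die replicate 14, highest for Malat1 (239400).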

How the results depend on the processing

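The counts of genes at least 1 higher and lower in high libraries (1636 and 241) were 6532 and 1401 with a mean of at least 1, 6917 and 1528 with no filter, 474 and 128 with a mean of at least 200, 502 and 116 leaving out the 3 libraries in which many genes were at 0, and 124 and 117 without the 7. With 6 libraries a class 849 were lower, after rescaling without 7S RNA 82 were lower, and with the number of genes at 0 as covariate 615 were higher. Leaving out single libraries gave 1266 to 1884 higher and 207 to 369 lower, the last without sham replicate 2. With no covariate the median of the mitochondrial ribosomal RNAs turned to 0.0187 and mt-Rnr1 to 0.1264. Without the 7, Atf7ip turned to 0.05512. Rescaling without 7S RNA moved the median of all genes from 0.12 to 0.35, and the medians of the translocon, exosome, oxidative phosphorylation, platelet and eosinophil lists, all below 0 before, to between 0.13 and 0.27. The causes were not tested.

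For the share, Live minus sham was 0.7019 on the log2 scale (adjusted p = 0.0622, permutation test), 7.788 points without the 3 libraries and 7.788 to 11.24 over single omissions. Die minus Live was -10.35 without the 3, -4.846 without the 7 and -15.5 to -11.85 over single omissions. Die minus sham ran from -6.018 to -2.386 and irradiated minus sham from 1.508 to 4.205 over single omissions. Without the 7, which hold the lowest shares, irradiated minus sham was 8.055 and Die minus sham turned to 4.70, both given with no test.

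Genes called higher and lower with the share as covariate, for irradiated minus sham (12 and 64), were 1 and 9 with no covariate, 2 and 19 with a mean of at least 1, 43 and 123 with a mean of at least 200, 28 and 98 with the log2 share, 104 and 295 without the 3 libraries, 2 and 31 rescaled without 7S RNA, 609 and 820 with array weights, 1 and 1 without the 7, and 2 and 22 with membership of the 7 as covariate. For Live minus sham (2 and 11), 37 were lower with no covariate, 1 higher with a mean of at least 1 and 20 lower with a mean of at least 200. It gave 104 and 168 with the log2 share, 55 and 178 without the 3, 0 and 1 rescaled, 544 and 627 with array weights, 0 and 0 without the 7, 24 and 118 with membership, and 111 and 295 with no covariate without the 7. For Die minus sham the 1 lower gene became 0 in all of these settings but 2, a mean of at least 200, which kept the count, and array weights, which gave 49 higher and 172 lower.

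Same-numbered libraries did not deviate together (10 pairs, correlations of -0.194 to 0.0403, 0 best with their own number). Whether same-numbered animals were handled together cannot be told from these values. With the replicate block, Live minus sham of the share was 9.024 points (6 pairs, exact sign-flip permutation test, Benjamini-Hochberg adjusted p = 0.234). With that block limma called 0 higher and 1 lower gene for irradiated minus sham and 0 for Live minus sham and Die minus sham. Reads per library are unknown, so low values carry counting error that could not be given.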
